A study of Mus musculus with 6 samples.

Results

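The genes described here are 10 components of the cell's response to RNA and DNA in the cytosol: the RNA helicases Ifih1 and Dhx58, the Z-form nucleic acid sensor Zbp1, the adaptor Mavs, the ubiquitin ligase Trim25, the kinase Eif2ak2, the editing enzyme Adar, and the PARP family genes Parp9, Parp12 and Parp14. They were selected on gene family and on earlier results of the same comparison, namely the log2 intensities of wild-type and Lasp1 knockout arrays, so their differences between the genotypes are given as a description without a test. All 10 were measured, of 19057 genes in all, and every probe that carried their symbol was taken, which gave 23 probes. RNA came from mouse embryonic fibroblasts, connective tissue cells grown out from dissociated embryos, of the C57Bl/6NCr strain. One group carried intact Lasp1 on both chromosomes (Lasp1+/+, wild type) and the other a disrupted gene on both (Lasp1-/-, knockout), and Lasp1 codes for an actin-binding LIM and SH3 domain protein of focal adhesions. Each genotype had 3 Illumina bead arrays, and no treatment with nucleic acid, virus or interferon is named in the labels. The labels do not say that the 3 arrays of a genotype stem from different embryos or cultures, so p-values measure only the spread between these samples, and that spread may be technical.

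Cells carry proteins that recognise nucleic acid in the wrong place or form. The RIG-I-like helicases bind double-stranded RNA and pass the signal through the mitochondrial adaptor MAVS to kinases and IRF transcription factors, which switch on interferon genes. Secreted interferon then acts through its receptor and transcription factors such as STAT2 and IRF9 to raise the sensors themselves, together with PKR (the product of Eif2ak2), the long form of ADAR1 and several ADP-ribosyltransferases, so that most of these genes are both parts of the pathway and its targets.

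The arrays share a median of 1000, and their upper quartiles lay between 2018 and 2330. The probe of Lasp1 with the highest mean read 135295, 148208 and 148809 in wild type and 51904, 51019 and 49770 in knockout (limma adjusted p = 1.17e-05 over all genes). All 12 fibroblast markers exceeded the median probe, and 5 of them fell in knockout (Col1a2, Lum, Pdgfrb, Dcn and Thy1), with a summed intensity of 999975 to 1160655 in wild type and 815511 to 871244 in knockout. Of 10 epithelial markers 3 fell, Krt14, Krt8 and Krt19, and the summed list was 26257 to 31371 in wild type and 13575 to 14186 in knockout. The median log2 difference of that list was only -0.09, and not all of it read lower. Cldn4 read 879 in wild type and 1094 in knockout with separate groups, not called by limma, and Cldn7 1294 and 1405 with overlap. Of the 10, 8 were above the median of all probes, Epcam and Krt5 were not, and Cdh1 was close to it (1037 and 1065). Emcn was the 1 of 9 endothelial markers that rose (sums of 17474 to 19366 and 18061 to 20292), with 6 of the 9 above that median and Cdh5 not. Esam went the other way, at 1404 in wild type and 1140 in knockout with separate groups, not called by limma. The median log2 difference of the endothelial list was -0.06. Lyz2 was the 1 of 13 haematopoietic markers that rose (sums of 20409 to 25755 and 26664 to 28301), with 8 of the 13 above the median of all probes. Among those, Laptm5 read 4651 and 5491, Fcer1g 3722 and 4464 and Cd14 1823 and 2320 in wild type and knockout, none of them called by limma (adjusted p = 0.511, 0.315 and 0.0771). Ptprc, Cd74, Itgam and Spi1 were not above it. The part of these marker differences in the results below was not tested. In RNA from whole cultures, fewer cells that express a gene and less RNA per cell cannot be told apart.

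Of the 10 genes, 5 had lower values in all 3 knockout arrays than in any wild-type array: Parp14, Dhx58, Trim25, Parp12 and Eif2ak2. Such a separation with knockout lower was seen in 14% of all genes. Parp14 and Dhx58 had the largest differences, both more than 2-fold. Mavs, Zbp1 and Adar had overlapping groups, Parp9 read close to the array median, and Ifih1 lay below it in every array. In the limma fit over all genes, 4 of the 10 were called, all lower, where 6.28% of genes were called in either direction and 4.08% were called lower; the choice of the members used this contrast, so nothing is read from that count, which was 6 without wild type array 1, 2 without wild type array 3 or knockout array 2, and 1 without knockout array 3. The median log2 difference, knockout minus wild type, was -0.40 over the 10 members and -0.02 over all genes.

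**Figure D1:**
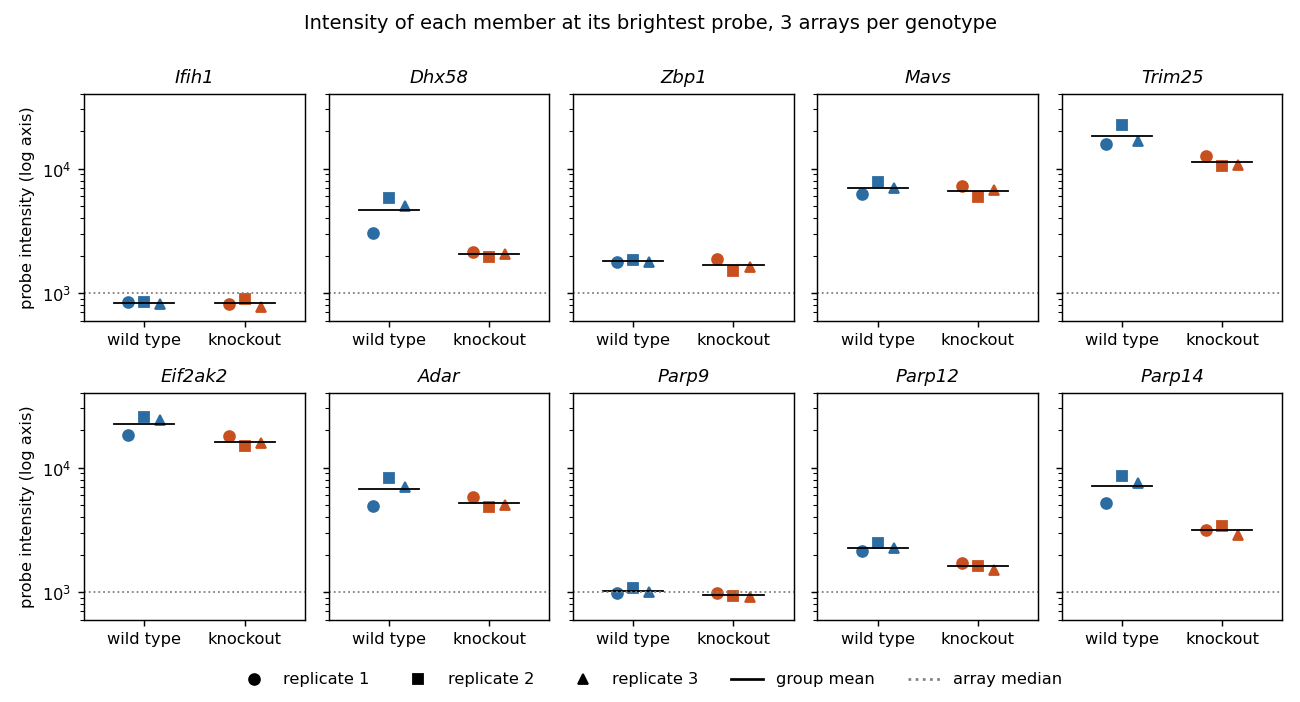
Intensity of each of the 10 genes at its brightest probe (vertical log axis) in 3 wild-type and 3 knockout arrays; symbols give the replicate, black lines the group mean and the dotted line the array median of 1000. The groups are separate for Dhx58, Trim25, Eif2ak2, Parp12 and Parp14, they overlap for Mavs, Zbp1 and Adar, and Ifih1 and Parp9 lie near or below the dotted line.

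Interferon-induced genes are commonly switched on through a DNA element called the ISRE, which a complex that holds IRF9 and STAT2 binds, so the start sites of the members were read for it. RefSeq promoter windows on assembly GRCm38.p6, with 250 bases before and 50 after each start site, were at hand for 6 of the 10 members in 8 windows (Ifih1, Mavs, Eif2ak2, Trim25, Adar with 3, and Parp12). An ISRE-like motif, GAAANNGAA on the gene's strand or TTCNNTTTC as read from the other strand, occurred in 4 of the 6, namely Ifih1, Eif2ak2, Trim25 and the third window of Adar. The same letters occurred in 8.56% of all 32851 windows and in 9.76% of 27025 genes. Mavs, Parp12 and the other Adar windows held no match, which says only that these letters are not in those windows. A GAS-like motif, TTCNNNGAA, which is the same on both strands, occurred in Eif2ak2 and in the third Adar window, against 8.3% of all windows, and shared 0 bases with the ISRE-like matches. The matches of the members are shown because these 4 genes read differently on the arrays: Trim25 and Eif2ak2 were bright and separate between the genotypes, Adar was bright with overlapping groups, and Ifih1 was at background. The promoter of Isg15, an interferon-induced ubiquitin-like modifier, and that of Ddx58, which codes for the sensor RIG-I, stand beside them as examples of non-members with a match. Irf7, Irf9 (in 2 windows) and Dtx3l, which also read lower in knockout, held 0 ISRE-like matches. Stat2, lower in knockout as well, held 1, at position -221. Capitals mark the ISRE-like match, and positions count from the start site as 0.
Eif2ak2, chr17:78882532-78882561, minus strand, positions 11 to 40: ccgccggGAAAACGAAACAGAAgagaaccg
Trim25, chr11:88999364-88999402, plus strand, positions -39 to -1: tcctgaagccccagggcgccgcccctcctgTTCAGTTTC
Ifih1, chr2:62646329-62646397, minus strand, positions -142 to -74: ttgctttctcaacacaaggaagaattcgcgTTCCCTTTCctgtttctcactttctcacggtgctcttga
Ifih1, chr2:62646206-62646233, minus strand, positions 22 to 49: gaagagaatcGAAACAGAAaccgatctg
Adar, chr3:89730468-89730507, plus strand, positions -250 to -211: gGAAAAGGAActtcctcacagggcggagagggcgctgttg
Adar, chr3:89730741-89730767, plus strand, positions 23 to 49: tcaaggaaacGAAAGTGAActctgggg
Isg15, chr4:156200846-156200926, minus strand, positions -108 to -28: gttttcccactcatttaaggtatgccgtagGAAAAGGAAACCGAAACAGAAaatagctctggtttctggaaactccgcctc
Ddx58, chr4:40239803-40239832, minus strand, positions -7 to 22: ctgaggcagtTTCGATTTCctatggccagc
In Eif2ak2 the 2 matches overlap and form a single run, and in Isg15 3 matches do so. A match is a description of the letters and not a site that a factor was seen to bind.

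Among the sensors, Dhx58 codes for LGP2, a helicase that binds double-stranded RNA but lacks the signalling domains of its relatives and tunes their activity. At its brightest probe the wild-type arrays read 3029, 5855 and 5010, and the knockout arrays read 2129, 1947 and 2065. The knockout arrays sat close together below all wild-type arrays, whereas wild type replicate 1 was well under the other two. The mean was 4631 ± 1451 for wild type against 2047 ± 92.6 for knockout (SD, n = 3 each), which is 2.18-fold lower in knockout, with a log2 difference of -1.13 ± 0.20 (moderated SE). Of the 3 other Dhx58 probes, those at 3451 and 1670 in wild type were also separate, with log2 differences of -0.93 ± 0.17 and -0.64 ± 0.13. The fourth probe, at 926 ± 52.6 against 913 ± 44.5 (SD, n = 3 each), was below the array median in both.

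Ifih1 codes for MDA5, the helicase that recognises long double-stranded RNA and signals to MAVS. Its single probe read 853, 854 and 812 in wild type and 820, 896 and 776 in knockout. All 6 values were below the array median of 1000, the groups overlapped fully, and 11% of probes had a lower mean. The log2 difference was -0.02 ± 0.08 (SE). A probe at that level measures neither the amount of MDA5 RNA nor its change.

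Zbp1 binds left-handed nucleic acid through its Z-alpha domains, which it shares with the long form of ADAR1, and can start necroptosis through the kinase RIPK3. The brightest of its 3 probes read 1783, 1851 and 1788 in wild type and 1887, 1498 and 1632 in knockout. Knockout replicate 1 exceeded every wild-type array, so the groups overlapped. Means were 1807 ± 37.5 and 1672 ± 197.6 (SD, n = 3 each), a log2 difference of -0.12 ± 0.09. It was -0.21 without knockout array 1, -0.04 without knockout array 2 and -0.20 after background correction. Its other probes, at 937 ± 56.3 and 911 ± 17.3 in wild type, were not above the median of all probes in either genotype.

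Mavs codes for the adaptor on the outer mitochondrial membrane that both RIG-I and MDA5 engage. Its single probe read 6227, 7855 and 6942 in wild type and 7308, 5892 and 6769 in knockout. High and low values fell in both genotypes, and the means of 7008 ± 816 and 6656 ± 715 (SD, n = 3 each) lay closer together than the arrays within each. The log2 difference of -0.07 ± 0.11 changed sign to 0.02 after quantile normalization and to 0.01 without wild type array 2 or knockout array 2.

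Trim25 is a ubiquitin ligase that was described as an activator of RIG-I and is itself induced by interferon. At the brighter of its 2 probes the values were 15701, 22322 and 16648 in wild type and 12600, 10500 and 10653 in knockout. All knockout arrays were below all wild-type arrays. The means were 18224 ± 3581 and 11251 ± 1171 (SD, n = 3 each), 1.61-fold lower in knockout, with a log2 difference of -0.68 ± 0.13. The second probe read 917 ± 103 and 862 ± 72.0 and was not above the median of all probes in either genotype.

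Eif2ak2 codes for PKR, which is switched on by double-stranded RNA and halts translation by phosphorylating the initiation factor eIF2 alpha. Its single probe read 18326, 25452 and 24059 in wild type against 17960, 14966 and 15752 in knockout. The groups were separate by a narrow margin, since wild type replicate 1 and knockout replicate 1 nearly met. The means were 22613 ± 3777 and 16226 ± 1552 (SD, n = 3 each), 1.38-fold lower in knockout, with a log2 difference of -0.47 ± 0.13. That difference was -0.61 without wild type array 1 and -0.38 without wild type array 2.

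Adar codes for ADAR1, which turns adenosine into inosine in double-stranded RNA and so keeps the cell's own RNA from setting off MDA5 and PKR. It has a constitutive short form and an interferon-induced long form, and which of the 5 probes reads which form was not determined here. The brightest probe read 4949, 8206 and 6973 in wild type and 5868, 4802 and 5052 in knockout. Wild type replicate 1 lay among the knockout arrays, so the groups overlapped there, with means of 6709 ± 1644 and 5241 ± 557 (SD, n = 3 each) and a log2 difference of -0.33 ± 0.16. It was -0.53 without wild type array 1 and -0.17 without wild type array 2. The dimmer probes with wild-type means of 1396, 1383 and 1097 had separate groups with log2 differences of -0.24 ± 0.08, -0.12 ± 0.08 and -0.27 ± 0.08, and the probe at 3122 overlapped (-0.11 ± 0.11). All 5 probes were thus lower in knockout on average, also after upper-quartile scaling, quantile normalization and background correction, while the separation seen at 3 of them was not seen at the brightest.

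The PARP members attach single ADP-ribose units to proteins or nucleic acid, or read such marks. Parp14, a large enzyme with macrodomains that bind ADP-ribose, read 5211, 8624 and 7491 in wild type and 3166, 3432 and 2887 in knockout at its brightest probe. No knockout array came near the lowest wild-type array. The means were 7109 ± 1739 and 3162 ± 273 (SD, n = 3 each), 2.21-fold lower in knockout, with a log2 difference of -1.14 ± 0.16. Its other probes read 1101 ± 253 and 890 ± 113 in wild type and 1009 ± 25.6 and 882 ± 33.4 in knockout, near the array median in both genotypes.

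Parp12 codes for a mono-ADP-ribosyltransferase with zinc fingers that restrains the replication of several viruses. Its single probe read 2136, 2469 and 2247 in wild type and 1703, 1638 and 1501 in knockout. The arrays of each genotype were tight and the groups were separate. With means of 2284 ± 169 and 1614 ± 103 (SD, n = 3 each), it was 1.41-fold lower in knockout (log2 difference -0.50 ± 0.08). The fold was 1.70 after background correction.

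Parp9 codes for a macrodomain protein that works as a complex with the ubiquitin ligase DTX3L. The brighter of its 2 probes read 988, 1078 and 998 in wild type and 992, 926 and 911 in knockout, around the array median, with overlapping groups (log2 difference -0.11 ± 0.07). After background correction the difference was -0.36. At the other probe the means were 980 ± 17.6 and 945 ± 81.0 (SD, n = 3 each). Parp9, Dtx3l and Parp14 follow each other on chromosome 16 with 0 other protein-coding genes between them in the RefSeq order. Dtx3l, which was not chosen as a member, read 3365, 5485 and 3484 in wild type and 2695, 2127 and 2347 in knockout and fell by 0.75 ± 0.18 on the log2 scale (limma adjusted p = 0.0376), with a second probe near the median at 1257 and 1297. The limma call of Dtx3l was lost without wild type array 3, knockout array 2 or knockout array 3, in the mean of its probes and after background correction (adjusted p up to 0.165 over the alternatives).

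**Figure D2:**
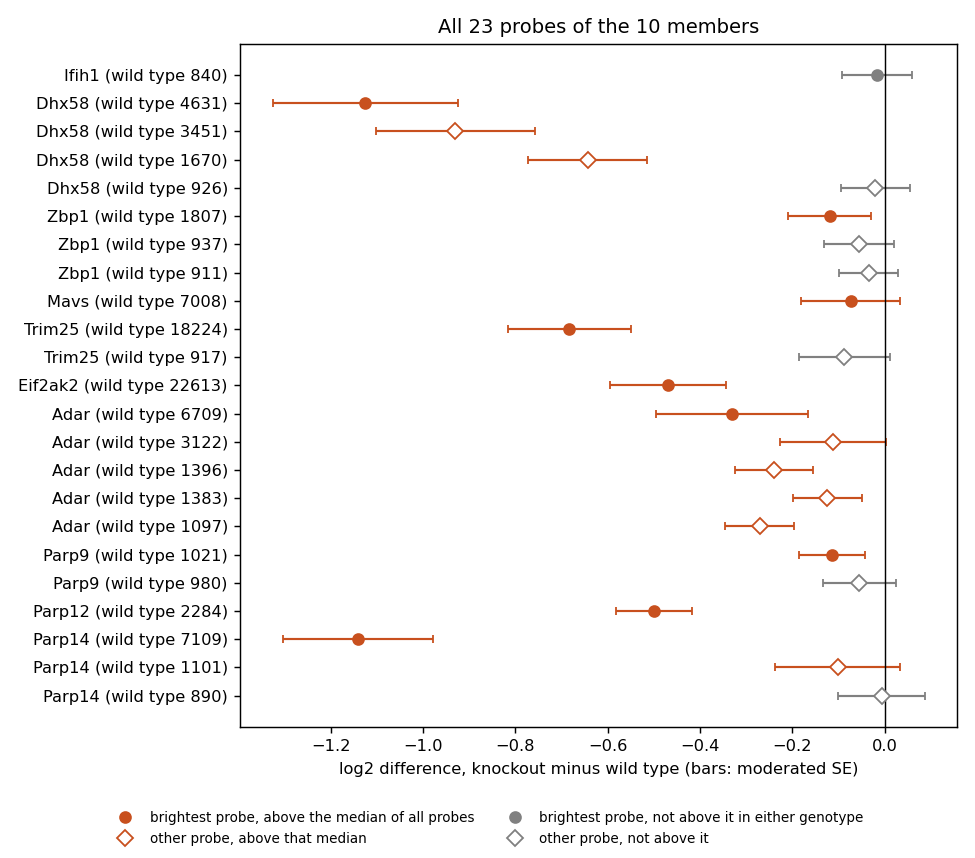
Log2 difference between knockout and wild type (horizontal axis, bars are the moderated SE) for all 23 probes of the 10 genes, each row naming the gene and the probe's mean wild-type intensity; filled circles are the brightest probe and grey marks are probes not above the median of all probes. All 23 lie left of 0, and the grey marks lie close to 0 whatever the gene. The Adar probe with a wild-type mean of 1097 is not grey and lies at -0.27.

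All 23 probes had a negative log2 difference in the deposited scaling and after background correction, but 3 turned positive with upper-quartile scaling (the Ifih1 probe and a dim probe each of Dhx58 and Parp14) and 1 with quantile normalization (Mavs). Groups were separate, with knockout lower, at 10 of the 23 probes, 3 of them from Dhx58 and 3 from Adar, where 12.6% of all probes with 1 symbol were; the choice of the members used this contrast, so nothing is read from that count. Of the 23, 7 were not above the median of all probes in either genotype, and none of those 7 was separate. In Dhx58, Trim25 and Parp14 the brightest probe had separate groups and a dimmer probe of the same gene did not. Averaging all probes of a gene brought Dhx58 to -0.68, Trim25 to -0.39 and Parp14 to -0.42, against -1.13, -0.68 and -1.14 at the brightest probe.

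Within each genotype the members ranked the arrays alike. Of the 8 members whose mean over all arrays was above the median of all probes, 8 were highest among the wild-type arrays in replicate 2 and 8 were lowest in replicate 1, and 7 were highest among the knockout arrays in replicate 1. Wild type replicate 2 and knockout replicate 1 were also the arrays with the highest upper quartiles (2330 and 2283). Of 11985 genes above the median, 7679 were highest in wild type replicate 2, 7181 lowest in wild type replicate 1 and 7921 highest in knockout replicate 1. With every array scaled to its upper quartile, 7 of the 8 members were still lowest in wild type replicate 1 and 5 were highest in wild type replicate 2, while 4401 of the 11985 genes were lowest and 3598 highest in those arrays. The knockout arrays then shared no order over the members. The mean deviation of the 8 members in wild type replicate 1 was -0.27 in the deposited scaling and -0.19 with upper-quartile scaling, against -0.08 and -0.003 for all genes above the median. Of 61 other interferon pathway genes, 50 were lowest among wild type in that same array, and 41 with upper-quartile scaling.

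**Figure D3:**
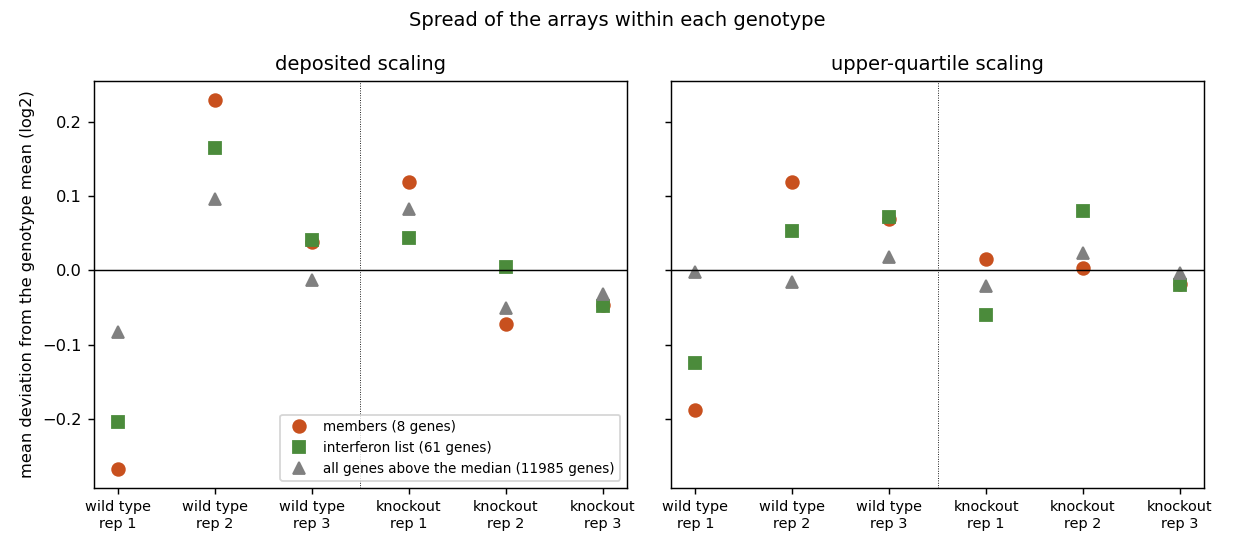
Mean deviation of each array from its genotype mean (vertical axis, log2) for the 8 brighter members, 61 other interferon pathway genes and 11985 genes above the median of all probes, in the deposited scaling (left) and with upper-quartile scaling (right). Wild type replicate 1 is low for the members and the interferon list in both panels, at -0.19 and -0.13 on the right, where all genes are near 0.

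The median pairwise Pearson correlation of these deviations over the 6 arrays was 0.78 among the 28 pairs of members and 0.32 among all pairs of genes above the median, and it was 0.49 and 0.05 with upper-quartile scaling, where pairs of members ran from -0.80 to 0.96. Pairs of the 61 other interferon pathway genes had medians of 0.63 and 0.38, between those of the members and of all genes. The pairs share their arrays and 4 degrees of freedom, so these values describe the 6 arrays only. The genes whose log2 values followed the mean of the 8 members most closely were Dbnl, Trp53i11, Tm2d3, Esyt1 and Lhfpl2, with Pearson correlations of 0.998 to 0.999 over 6 arrays, and 670 of 11977 genes exceeded 0.95. After the genotype means had been removed the closest were Zfp219, Trim45, Bcl7c, Srpk1 and Abcb8 (0.999), with 1034 genes above 0.95. With so many genes at that level, the order at the top says little.

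The other sensors and their helpers changed in few cases. Of 35 measured genes of nucleic acid sensing outside the members, 4 fell, 0 rose and 31 did not pass in limma, against 12 at an unadjusted p under 0.05, and over all genes 18.6% had such a p. The median log2 difference was -0.11. The calls are 11.4% of the list beside 6.28% of all genes. Ddx58, the gene of RIG-I and closest relative of Ifih1 and Dhx58, read 2504, 2632 and 2638 in wild type and 1886, 1782 and 1887 in knockout and fell by 0.49 ± 0.07 (limma adjusted p = 0.0036). Its other probes read about the array median, and averaged over all of them it was not called (limma adjusted p = 0.147, higher than in any other alternative). Unc93b1, which carries nucleic acid receptors of the Toll family to endosomes, fell by 0.70 ± 0.13. Lsm14a, an RNA granule protein, fell by 0.42 ± 0.08, and Rnaseh2b, a subunit of the nuclease that removes RNA from DNA, fell by 0.36 ± 0.07. The limma adjusted p of these 3 was at most 0.0152. The list had 7 calls when wild type array 1 was left out, 1 for wild type array 3, 2 for knockout array 2 and 1 for knockout array 3. The calls of Unc93b1 and Lsm14a were lost in the last 3 of these fits. That of Rnaseh2b was lost without wild type array 3 and without knockout array 3. In separate fits on all arrays it was also lost after quantile normalization and with trend and robust estimation. None of these 3 was called after background correction (limma adjusted p = 0.0574, 0.18 and 0.215). Cgas, the enzyme that senses cytosolic DNA, differed by -0.35 ± 0.12 (limma adjusted p = 0.136; 0.0239 to 0.404 over the alternatives) and its adaptor Sting1 by -0.26 ± 0.11 (limma adjusted p = 0.249; 0.146 to 0.594). Tlr3, the endosomal receptor for double-stranded RNA, read 886 to 952 over the 6 arrays, at background.

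**Figure D4:**
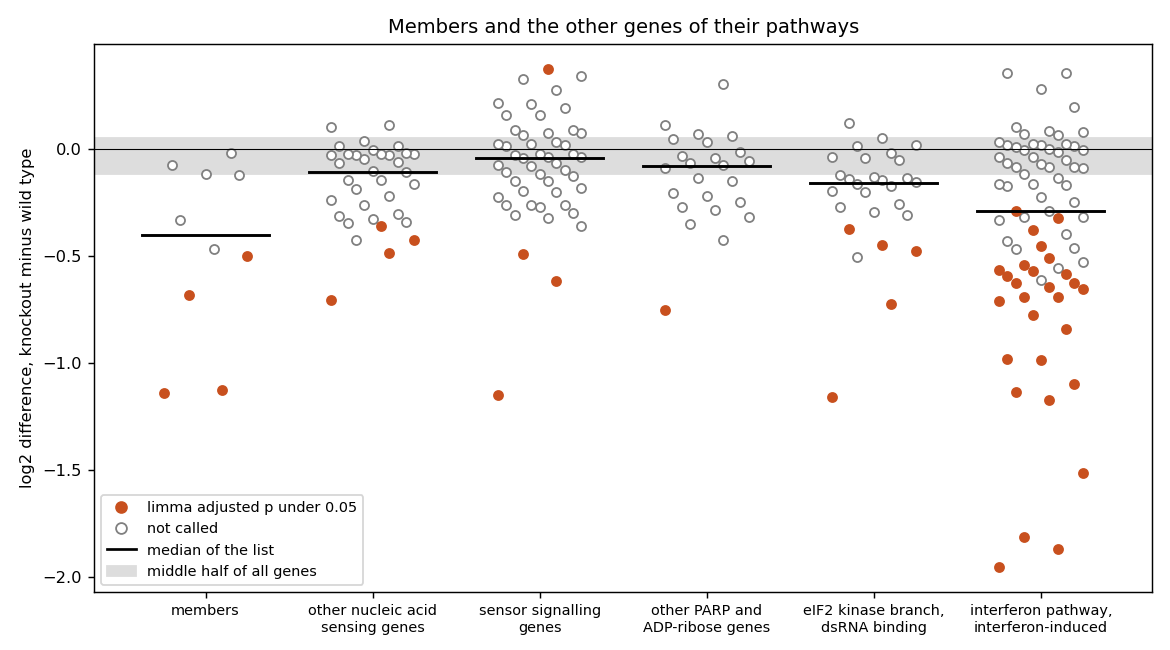
Log2 difference between knockout and wild type (vertical axis) for the 10 members and the measured genes of 5 pathway lists, one point per gene at its brightest probe; filled points have a limma adjusted p under 0.05, black lines are list medians and the grey band holds the middle of all genes, from -0.12 to 0.05. Medians run from -0.04 for sensor signalling genes to -0.40 for the members, which were selected with this contrast in view.

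Downstream of the sensors, the kinase and the constitutive transcription factor did not pass, and the interferon-induced factor fell. Tbk1, the kinase that MAVS and STING engage, differed by 0.21 ± 0.09 (limma adjusted p = 0.276; called after quantile normalization, 0.0181, with 0.539 the highest of the alternatives). Irf3, which Tbk1 activates, differed by 0.07 ± 0.11 (limma adjusted p = 0.844; 0.301 to 0.962). Irf7, its interferon-induced relative, read 2527, 4362 and 3194 in wild type and 1602, 1484 and 1353 in knockout and fell by 1.15 ± 0.17 (limma adjusted p = 0.00438), a call kept in all 13 alternatives. Mlkl, which carries out the necroptosis that Zbp1 and Ripk3 can start, fell by 0.62 ± 0.07 (limma adjusted p = 0.0014), also kept in all 13. In the mean of its probes the fall of Mlkl was smaller, at 0.27 (limma adjusted p = 0.043). The kinase adaptor Tab2 fell by 0.49 ± 0.12, and the deubiquitinase Cyld rose by 0.37 ± 0.08 at 1 of its 4 probes (limma adjusted p = 0.0414 and 0.0297). Both calls were lost without wild type array 3, knockout array 2 or knockout array 3 and after background correction. The rise of Cyld was also not called with trend and robust estimation (limma adjusted p = 0.0963) or in the mean of its probes, where the difference was 0.11. In all, 3 of 49 measured signalling genes fell, 1 rose and 45 did not pass, or 8.16% called, with a median of -0.04. The number of calls was 7 without wild type array 1, 2 without wild type array 3, 2 without knockout array 2 and 2 without knockout array 3, and with 9 after quantile normalization the split was 5 higher and 4 lower. It was 3 and 4 with upper-quartile scaling and 3 and 3 without wild type array 2, so the split by direction in this list depended on the setting.

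Other genes of ADP-ribose transfer and removal gave 1 fall, the Dtx3l described above, and 23 that did not pass among 24 measured, with 9 at an unadjusted p under 0.05 (18.6% over all genes) and a median of -0.08. Called genes were 4.17% of that list. Zc3hav1, which codes for the zinc finger antiviral protein and belongs to the same family as Parp12, read 1162, 1269 and 1097 in wild type and 991, 987 and 1050 in knockout, separate groups with a log2 difference of -0.22 ± 0.08 that limma did not call (adjusted p = 0.164; 0.0877 to 0.824 over the alternatives). The count was 3 without wild type array 1, 2 without wild type array 2 or knockout array 1, and 0 without wild type array 3, knockout array 2 or knockout array 3, with 6, 5 and 7 genes at an unadjusted p under 0.05 in those last fits, and 5 after quantile normalization.

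PKR is among the kinases that phosphorylate eIF2 alpha, after which the stress factor ATF4 switches on its targets. Of 28 measured genes of the eIF2 kinases, their targets and proteins that bind double-stranded RNA, 5 fell, 0 rose and 23 did not pass, or 17.9% called, with a median of -0.16 and 8 at an unadjusted p under 0.05. Trib3, a pseudokinase induced by ATF4, fell by 1.16 ± 0.11 (limma adjusted p = 0.000389) at its brightest probe, and its dimmer probes fell by 1.16 and 1.19. The call of Trib3 was kept in all 13 alternatives. Ddit3, the stress factor CHOP, fell by 0.72 ± 0.17, Strbp, a protein that binds double-stranded RNA, by 0.48 ± 0.09 and Ppp1r15a, which returns eIF2 alpha to its active state, by 0.45 ± 0.11 (limma adjusted p at most 0.0488). Atf4 itself, named after its value had been seen to complete the count, fell by 0.37 ± 0.09 at its brightest probe (limma adjusted p = 0.0362). Its other probe read 23276 in wild type and 13689 in knockout, with separate groups and a log2 difference of -0.78 ± 0.12. In the mean of its probes Atf4 fell by 0.57 (limma adjusted p = 0.00743). The number of calls was 3 without wild type array 2, 2 without wild type array 3 or knockout array 2, and 1 without knockout array 3. Without wild type replicate 3 and without knockout array 3 the calls of Ddit3, Strbp and Ppp1r15a were lost, those of Ddit3 and Ppp1r15a also without knockout array 2, and Atf4 was called without wild type array 3 but not without any other array. Ppp1r15a was also not called without wild type array 2, with trend and robust estimation or with averaged probes (limma adjusted p = 0.0811, 0.0512 and 0.0557). In the mean of its probes Strbp fell by only 0.15 and was not called (limma adjusted p = 0.162). The other eIF2 kinases differed by -0.50 ± 0.14 (Eif2ak1), 0.01 ± 0.07 (Eif2ak3) and -0.04 ± 0.07 (Eif2ak4), and limma called none of them (adjusted p = 0.0699, 0.963 and 0.865).

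Of the pathway lists, the genes that make and relay interferon, and further genes that interferon induces, had the most calls. Of 76 measured, each at its brightest probe, 28 fell, 0 rose and 48 did not pass, or 36.8% called, and the median was -0.29. Beside these stand 6.28% called over all genes, and 41.7% of the 12 fibroblast markers, whose median was -0.36. The interferon list was drawn up with earlier results of these arrays known, and interferon genes were already known to be low, so its direction is no independent evidence. Isg15 fell by 1.95 ± 0.21, its protease Usp18 fell by 1.87 ± 0.17, Oasl2 fell by 1.81 ± 0.16 and Ifit3, an RNA-binding effector, fell by 1.51 ± 0.15 (limma adjusted p at most 0.000723). The signal transducers Stat2 and Irf9, which drive the ISRE together, each fell by 0.63 (SE 0.15 and 0.11, limma adjusted p = 0.039 and 0.0111). The limma call of each was lost without wild type array 3 or knockout array 3, and that of Stat2 also without knockout array 1 or 2. In the fit that averaged each gene's probes Stat2 kept its difference of -0.63 but was not called (limma adjusted p = 0.053). After background correction neither Stat2 nor Irf9 was called by limma (adjusted p = 0.117 and 0.0734). The interferon gene Ifnb1 read 732 to 912 over the 6 arrays, at background, with a log2 difference near 0 (-0.00015 ± 0.11, limma adjusted p = 1). The count of calls was 13 without wild type array 3, 16 without knockout array 2 and 13 without knockout array 3. Some alternatives also had rises in this list. Quantile normalization gave 2 rises and 36 falls, upper-quartile scaling 1 and 33, and leaving out wild type array 2 gave 1 and 25. Probes of a gene could also differ. A dimmer Ifitm1 probe read 4369 in wild type and 6276 in knockout with separate groups, while the brightest Ifitm1 probe differed by -0.29 ± 0.09 on the log2 scale.

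Both Dhx58 and Trim25 lie on chromosome 11, as does Lasp1. In the RefSeq order 124 protein-coding genes lie between Lasp1 and Dhx58, and of the 94 measured 5 were called, all lower (5.32%). Between Lasp1 and Trim25 lie 114, and of the 100 measured 9 were called (9.0%), 3 of them lower. These shares stand beside the 6.28% of all genes called in either direction and the 4.08% called lower.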

How the data were processed

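Biotin-labelled cRNA from mouse embryonic fibroblasts was hybridised to Illumina arrays, per the labels' protocols. The authors' deposited values are intensities on a linear scale, each array with a median of 1000 and a minimum of 593 to 638; how they were scanned, background corrected and summarised is not given in the sources used here. GEO's platform annotation gave 1 symbol to 34885 of 45281 probes, several to 18 and none to 10378, and 34807 probes had an Entrez identifier in RefSeq (GRCm38.p6). Symbols were used as given. A gene was its probe with the highest mean log2 value.

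Log2 intensities entered limma 3.58.1 under R 4.3.3 (lmFit, eBayes; statmod 1.5.0 for robust fits), genotype as the only term, p-values adjusted by Benjamini-Hochberg over 19057 genes with a threshold of 0.05. Values of single probes came from the same model fitted over all probes with 1 symbol. The fit was tested on simulated data with independent noise in each gene, unlike these arrays, where deviations were correlated between genes. That run therefore does not measure how stable the calls are. A probe was called above the median where a group mean exceeded 992.7, the median of all probe means. Members and lists were chosen with earlier results of these data known. Genes named outside the members were fixed ones and, per list, up to 4 rises and 4 falls with the largest difference among called, separate and above-median genes; called markers and the 5 genes most like the members were named too. Alternatives were quantile normalization, upper-quartile scaling, normexp background correction with offset 50, a restriction to genes above the median, trend with robust estimation, averaging a gene's probes, blocking on the replicate number, and omitting each array in turn.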

Additional observations from a re-analysis of the deposited data

How the results depend on the processing

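Numbers of calls and their split by direction both depended on the arrays and the scaling. Leaving out 1 array gave 463 to 1594 called genes over all (511 without wild type array 3, 617 without knockout array 2 and 463 without knockout array 3; the split was 377 higher and 1217 lower without wild type array 1 and 729 and 709 without wild type array 2), 1 to 7 among other nucleic acid sensing genes, 2 to 7 in sensor signalling, 0 to 3 among other PARP genes, 1 to 5 in the eIF2 branch and 13 to 37 in the interferon list, and a median log2 difference of the members of -0.54 to -0.27. Members called were 4 in the deposited scaling, and 1 to 6 with an array left out. Quantile normalization gave 2092 calls over all genes (1009 higher and 1083 lower, against 418 and 778 in the deposited scaling), 9 in signalling and 5 among PARP genes, and upper-quartile scaling gave 1862 (726 and 1136), 7 and 3. Background correction by normexp gave 538 calls over all genes, 1 in sensing, 2 in signalling, 1 in the eIF2 branch and, by limma, 0 among PARP genes (6 at an unadjusted p under 0.05), and moved the median of all genes from -0.02 to -0.07. The mean of all probes gave 0 PARP calls by limma (7 at an unadjusted p under 0.05). With the replicate number as a block there were 415 calls over all genes, 1 in sensing, 2 in signalling, 0 among PARP genes (5 at an unadjusted p under 0.05), 1 in the eIF2 branch, 11 in the interferon list and 1 member. Of 21 named genes called outside the members, 12 lost the call with normexp and the same 12 with the block (Unc93b1, Lsm14a, Rnaseh2b, Dtx3l, Tab2, Cyld, Ddit3, Strbp, Ppp1r15a, Atf4, Stat2 and Irf9). Same-numbered arrays correlated at -0.41, -0.34 and 0.22 in their deviations. These deviations were taken in the deposited scaling, where they also follow the upper quartiles of the arrays. The correlations therefore cannot decide whether same-numbered arrays belong together, and the block also takes degrees of freedom. The cause of these shifts in calls was not tested. Low signal limits Ifih1 and, at the array median, Parp9, and with 3 arrays against 3 an exact permutation test cannot go below a p of 0.1.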
